A study of Mus musculus with 2 samples.

Results

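Osteopontin, encoded by Spp1, and fibronectin, encoded by Fn1, were followed with the integrin subunits Itgav, Itgb1 and Itga4 and the hyaluronan receptor Cd44 in leukocytes of the mouse heart. The rows of these 6 genes were taken from the count tables of both libraries, out of 23946 genes. The genes were selected on measured values, since Spp1 and Fn1 had been seen to differ between these same libraries. Their difference between the libraries is therefore a description and no independent finding. CD45+ cells were sorted from the hearts of female C57BL6 mice (C57BL/6J in the methods of the study), and the methods also give an age of 8 to 16 weeks. Control mice received an intraperitoneal injection of the vehicle, PBS, and the mice of the Takotsubo syndrome (TTS) model received 200 mg/kg isoproterenol, an agonist of beta-adrenergic receptors. Hearts were taken 24 hours later. The labels give the isoproterenol dose for both samples, so that the Control library was identified by its title. In each group the cells of 3 hearts were pooled into 1 library of the 10x 3' assay, which attaches a cell barcode to the RNA of each droplet and a unique molecular identifier (UMI) to each captured molecule.

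Osteopontin is a secreted phosphoprotein and fibronectin a large glycoprotein of plasma and tissue matrix. Both carry the RGD motif, which is read by integrins such as alpha v (Itgav) with a beta subunit. Both also hold a stretch read by alpha 4 beta 1, the pair of Itga4 and Itgb1, and osteopontin has been described as a ligand of Cd44 as well. In injured tissue, osteopontin is known as a product of macrophages, where it acts in adhesion, migration and survival of leukocytes. Fibronectin forms part of the provisional matrix, and it is made by fibroblasts, endothelial cells and activated macrophages.

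The coding bases of these binding sites show how the ligands meet the shared receptors. They are given 5' to 3' on the coding strand of the reference mouse genome (GRCm38), from release M21 of the GENCODE annotation, with the codons of the motif in capitals and the flanking coding bases in lower case. Coordinates are those of the capitals. The RGD codons of Spp1 lie in exon 6 of 7 of transcript Spp1-201, at residues 144 to 146 (chr5:104439481-104439489, plus strand). The codons read by alpha 4 beta 1 and alpha 9 beta 1 follow directly at residues 147 to 153 (chr5:104439490-104439510). In Fn1-201, transcribed from the minus strand, RGD codons lie in exon 30 of 46, at residues 1614 to 1616 (chr1:71606746-71606754), and again in exon 40, at residues 2181 to 2183, which are not printed. The LDV site read by alpha 4 beta 1 also lies in exon 40, at residues 2099 to 2103 (chr1:71597683-71597697), in a part that is known to be spliced in or out.
Spp1, RGD: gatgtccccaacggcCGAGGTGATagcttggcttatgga
Spp1, alpha 4 and alpha 9 site: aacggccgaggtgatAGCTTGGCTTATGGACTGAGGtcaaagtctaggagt
Fn1, RGD: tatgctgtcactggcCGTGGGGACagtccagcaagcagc
Fn1, LDV: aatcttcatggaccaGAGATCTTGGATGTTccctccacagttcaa
Counts from the 3' end do not show which of the 9 protein-coding transcripts of Fn1, 8 of Cd44 or 7 of Spp1 a UMI came from, and so they do not show whether the LDV site was present. On GRCm38, Spp1 spans chr5:104435118-104441050 and Fn1 spans chr1:71585520-71653200. Cd44 (chr2:102811141-102901665), Itgav (chr2:83724397-83806916) and Itga4 (chr2:79255426-79333123) lie on the same chromosome, and Itgb1 lies at chr8:128685654-128733200.

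The cell filters of the study kept 5641 Control cells with a median of 4790 UMIs and 5437 TTS cells with a median of 8537 UMIs. The libraries shared 15 of the kept barcodes. Cells were put into classes by the summed level of marker transcripts, and the limits of these gates were set after the data had been seen. Of the kept barcodes, 30.7% in Control and 22.1% in TTS passed the limits of more than 1 lineage and were set apart, because their members cannot be assigned to a class. Another 2.0% and 7.52% passed no gate. Levels are given as CPM, the UMIs of a gene per 1e6 UMIs of the class, with exact Poisson 95% intervals, and shares of cells with exact Clopper-Pearson intervals. Differences are log2 ratios of CPM, TTS over Control, with exact conditional 95% intervals. Each interval covers no more than counting error. With 1 library per group there is no replicate check and no test, and an effect of treatment cannot be told apart from a difference between libraries. Ptprc, the gene of the CD45 antigen used for sorting, was at 565 CPM in gated Control macrophages and 322 CPM in gated TTS macrophages, against 26.8 CPM in 24 gated Control stromal cells and 0 UMIs in 13 TTS ones.

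The macrophage gate held 937 Control and 2331 TTS cells, and the classical monocyte gate held 48 and 891 cells. The gated macrophages were not the same kind of cell in both libraries. The median sum of 8 macrophage markers was 155 UMIs per 10000 UMIs in Control and 30.6 in TTS, and the median sum of classical monocyte markers was 0 in Control and 26.8 in TTS. In TTS, macrophages and classical monocytes formed a continuum, with 509 cells within 1.5 times of the ratio that divided them. When all cells were clustered by k-means, the macrophage clusters 4, 16, 18 and 23 held mostly Control cells, and the macrophage clusters 2, 3, 13 and 22 mostly TTS cells. A difference within the macrophage gate can therefore come from other cells in the gate or from more RNA per cell, and these cannot be told apart. The same holds for the classical monocyte gate. There the median sum of macrophage markers was 4.87 in Control and 9.71 in TTS, and that of classical monocyte markers was 73.7 and 110.

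Spp1 was nearly absent from the leukocytes of the Control heart and was among the abundant transcripts of the phagocytes in TTS. Gated Control macrophages held 76 Spp1 UMIs, or 10.4 CPM (95% interval, 8.18 to 13). The TTS macrophages held 181484 UMIs, or 7246 CPM (7213 to 7279.5). The log2 ratio was 9.45 (9.12 to 9.79), a 698-fold difference, and it lay between 8.17 with clusters in place of gates and 9.80 with thinned cells. After each cell was thinned to 1000 UMIs, 0.641% of Control macrophages (0.236% to 1.39%) and 57.7% of TTS macrophages (55.6% to 59.7%) had a Spp1 UMI. Without thinning, the shares were 4.80% and 80.3%.

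In gated classical monocytes, no Spp1 UMI was found in Control, where 432366 UMIs allow up to 6.94 CPM at a floor of 3 counts. The TTS monocytes held 35162 Spp1 UMIs, or 4709.8 CPM (4661 to 4759), 679-fold that floor, and the exact lower 95% limit of the log2 ratio was 9.11. After thinning, 45.2% of the 891 TTS monocytes (41.9% to 48.6%) had a Spp1 UMI, and 0 of the 48 Control monocytes did, which allows a share of up to 7.40%. With 48 Control monocytes the bound is sensitive to the gate, and it dropped to 3.73 on the log2 scale in clusters that held 5 Control cells.

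Fn1 differed from Spp1 in that the gated classical monocytes of the Control heart already held the transcript. Gated Control monocytes held 436 Fn1 UMIs, or 1008 CPM (916 to 1108), and 37 of 48 cells had at least 1 UMI. Gated Control macrophages held 428 UMIs, or 58.5 CPM (53.1 to 64.3), so that Fn1 was 17.2-fold higher in Control monocytes than in Control macrophages. In TTS, the levels in both gates lay close together, at 2419.8 CPM (2401 to 2439) in macrophages and 2066 CPM (2034 to 2099) in monocytes. The log2 ratio between the libraries was 5.37 (5.23 to 5.51) in macrophages and 1.03 (0.90 to 1.18) in monocytes. The macrophage value was 6.21 with barcodes of more than 1 lineage kept and 4.39 with macrophages and monocytes as 1 class, a class added after the data were seen. The monocyte difference was 2.05-fold, and its log2 ratio turned to -0.91 with clusters, where 5 Control cells remained.

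**Figure D1:**
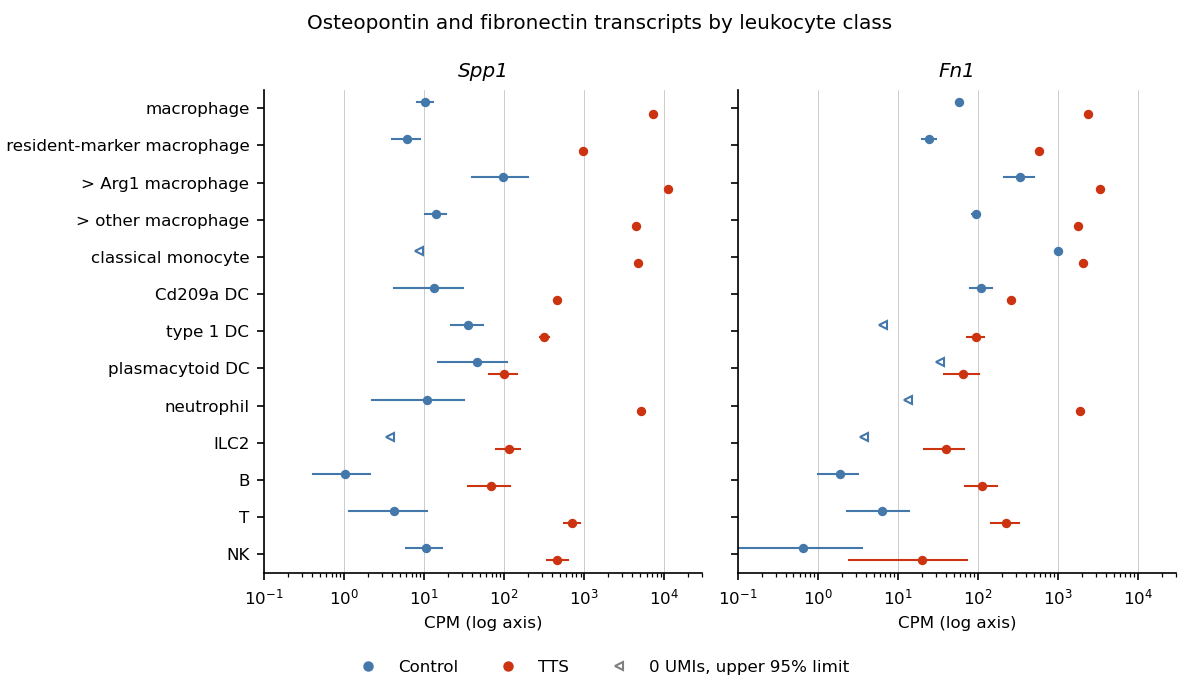
Levels of Spp1 and Fn1 in CPM (log axes) for each marker-gated class in the Control (blue) and TTS (red) library, with exact Poisson 95% intervals as bars; rows marked > are subsets of the macrophage row, and DC stands for dendritic cell. Open triangles mark classes with 0 UMIs at their upper 95% limit. Spp1 in macrophages lay at 10.4 CPM in Control and 7246 CPM in TTS, and Fn1 in Control was highest in classical monocytes at 1008 CPM.

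Among TTS macrophages, both ligands were highest in the cells with Arg1, the gene of arginase 1, and lowest in those with markers of resident macrophages (Timd4, Lyve1, Folr2, Cd163 and Cbr2). The 928 TTS macrophages with Arg1 held Spp1 at 11042 CPM (10982 to 11102) and Fn1 at 3359 CPM (3325 to 3392). The 216 resident-marker TTS macrophages held Spp1 at 978 CPM (937 to 1021) and Fn1 at 586 CPM (554 to 620). The Arg1 cells were thus 11.3-fold higher in Spp1 and 5.73-fold higher in Fn1 than the resident-marker cells of the same library. The 1187 other TTS macrophages lay between them, at 4494 CPM of Spp1 and 1794 CPM of Fn1. Arg1 chose the first subset, and only 6 Control macrophages passed its limit.

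Resident-marker macrophages were also higher in TTS than in Control, but most of them held little of either ligand. Spp1 in these cells was 6.09 CPM in 536 Control cells and 978 CPM in TTS, a log2 ratio of 7.33 (6.76 to 7.96). The median TTS cell of this subset held 21 CPM of Spp1, and 22 of the 216 cells held 91.8% of its Spp1 UMIs. Fn1 was 24.8 CPM in Control and 586 CPM in TTS, a log2 ratio of 4.56 (4.27 to 4.87), and the median cell held 0. In the Arg1 subset, the median cell held 5443 CPM of Spp1 and 3133 CPM of Fn1. The resident limit mattered for Spp1, which was 538 CPM when the limit was doubled.

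Spp1 UMIs were concentrated in a small part of the cells, and Fn1 UMIs were spread more widely. In TTS macrophages, the 234 of 2331 cells with the most Spp1 held 61.0% of the Spp1 UMIs. The same number of cells, ranked for each gene in turn, held 35.15% of the Fn1 UMIs, 28.5% of the Cd44 UMIs and 29.4% of the UMIs of Lyz2, the lysozyme gene of myeloid cells. In TTS monocytes, 90 of 891 cells held 72.0% of the Spp1 UMIs and 34.4% of the Fn1 UMIs. The richest single cell, an Arg1 macrophage, held 1813 Spp1 UMIs. Over the whole TTS library, gated macrophages held 59.4% of the Spp1 UMIs and 45.2% of all UMIs, and the Arg1 subset alone held 42.2% and 21.1%.

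In TTS macrophages as a whole and in TTS monocytes, most cells with a Spp1 UMI also had Fn1, but not in the resident-marker subset. Fn1 itself was found after thinning in 70.8% of all TTS macrophages, 72.7% of TTS monocytes and 19.9% of resident-marker TTS macrophages. The contrast therefore does not show a closer link of the ligands in any of these classes. After thinning to 1000 UMIs, 49.1% of TTS macrophages (47.0% to 51.1%) had UMIs of both ligands, 21.8% had Fn1 only, 8.58% had Spp1 only and 20.6% had neither. In the Arg1 subset, 75.9% (73.0% to 78.6%) had both. In resident-marker TTS macrophages, 8.33% (5.01% to 12.9%) had both, 9.72% had Spp1 only, 11.6% had Fn1 only and 70.4% had neither. TTS monocytes had both in 36.5% and Fn1 only in 36.3% of cells. In Control, 96.6% of macrophages had neither, 1 cell had both and 5 had Spp1 only, and 19 of 48 monocytes, or 39.6% (25.8% to 54.7%), had Fn1 only.

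**Figure D2:**
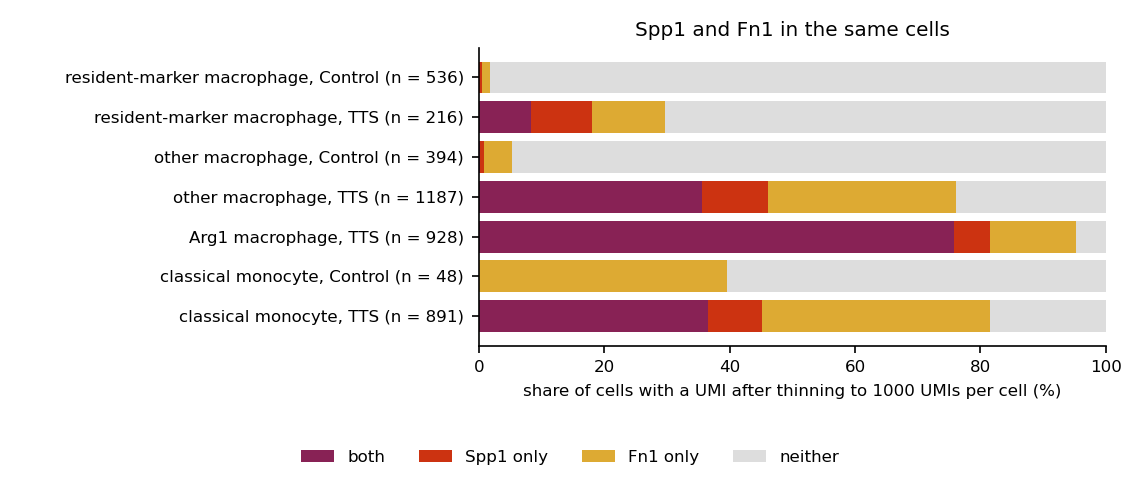
Share of cells (in percent, horizontal axis) with a UMI of both Spp1 and Fn1, of Spp1 only, of Fn1 only or of neither, after each cell was thinned to 1000 UMIs, for 3 macrophage subsets and classical monocytes in each library; the 6 Control macrophages with Arg1 are not drawn. Both ligands were found in 75.9% of TTS macrophages with Arg1 and in 8.33% of those with resident markers.

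The gated macrophages and classical monocytes of each library were next pooled and divided by Ly6c2, a surface antigen gene that is high in newly arrived classical monocytes and was among the markers of their gate. In TTS, the pooled Spp1 level was lower in cells with more Ly6c2. It was 7625 CPM in 1493 cells without a Ly6c2 UMI, 6949 CPM in 1165 cells with a level under 5 per 10000 UMIs, 3139 CPM in 522 cells from 5 to under 20, and 1174 CPM in 42 cells at 20 and over. The median cell did not follow this order throughout, with 1014, 1417, 170.3 and 109 CPM of Spp1. Fn1 in the same TTS cells was 2491, 2396, 1736 and 1532 CPM, with medians of 1899, 1945, 1535 and 1463 CPM. In Control, the order was the opposite for Fn1, with 15.1 CPM without Ly6c2, 339 CPM in 52 cells under 5, 919 CPM in 48 cells from 5 to under 20, and 1555 CPM (1258 to 1901) in 6 cells at 20 and over. In the highest Ly6c2 range, the Fn1 intervals of the libraries overlapped (TTS, 1393 to 1680 CPM). Spp1 in Control stayed between 0 and 19.5 CPM in all 4 ranges.

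**Figure D3:**
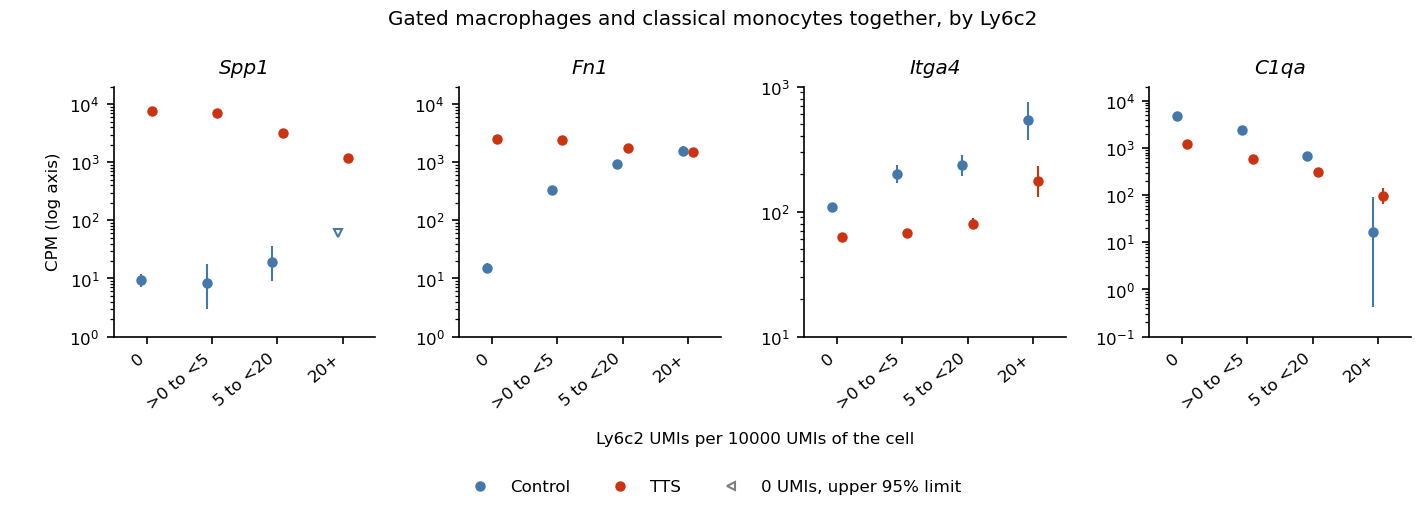
Levels in CPM (log axes) of Spp1, Fn1, Itga4 and the macrophage gene C1qa in gated macrophages and classical monocytes together, in 4 ranges of Ly6c2 UMIs per 10000 UMIs of the cell, for Control (blue) and TTS (red); bars are exact Poisson 95% intervals and the open triangle marks 0 UMIs at its upper 95% limit. Fn1 lay at 15.1 CPM in Control and 2491 CPM in TTS without Ly6c2, and at 1555 and 1532 CPM in the highest range.

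Outside the macrophage and monocyte gates, Spp1 and Fn1 were higher in TTS than in Control in each of the other 5 classes with at least 30 cells in both libraries. These were Cd209a dendritic cells (DCs), type 1 DCs, neutrophils, B cells and group 2 innate lymphoid cells (ILC2). B cells and ILC2 are among the lymphocytes that serve below as the reference for free RNA. In Cd209a DCs, Spp1 was 13.1 CPM in Control and 463 CPM in TTS, and Fn1 was 110.3 CPM (79.5 to 149) and 259 CPM (237 to 284), a log2 ratio of 1.23 (0.78 to 1.73). In type 1 DCs, Spp1 was 35.2 CPM (21.5 to 54.4) and 319 CPM (280 to 362), and Fn1 was 0 of 567732 UMIs and 94.8 CPM. Spp1 was thus 3.18 higher on the log2 scale in type 1 DCs (2.52 to 3.92). Plasmacytoid DCs, with 12 Control cells, held Spp1 at 46.4 and 100 CPM, a log2 ratio of 1.11 whose interval of -0.30 to 2.85 includes 0.

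Among the remaining classes, gated neutrophils had the highest levels, 5086 CPM of Spp1 and 1908 CPM of Fn1 in 51 TTS cells, against 10.9 CPM and 0 UMIs in 92 Control cells. After thinning, 37.3% of the TTS cells (24.1% to 51.9%) had a Spp1 UMI, and in the unthinned data Spp1 was present in 27 of the 51 cells, and 1 cell held 594 of the 1677 UMIs. The neutrophil markers summed to a median of 97.6 UMIs per 10000 in TTS and 140 in Control, and macrophage markers to 2.58 in TTS and 0 in Control. The part of macrophage RNA in these TTS values was not tested.

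Lymphocytes served as the reference for free RNA, although T and NK cells are known to make osteopontin, so that part of their Spp1 can be their own. In Control, 2553 gated lymphocytes held 27 Spp1 UMIs, or 2.61 CPM (1.72 to 3.79), and 20 Fn1 UMIs, or 1.93 CPM (1.18 to 2.98). In TTS, 181 gated lymphocytes held 177 Spp1 UMIs, or 246 CPM (212 to 286), and 61 Fn1 UMIs, or 84.95 CPM (65.0 to 109). The median depth of these cells was 3441 UMIs in Control and 3535 in TTS. A single T cell held 64 of these Spp1 UMIs and 22 of the Fn1 UMIs, and without it the levels were 159 CPM (131 to 192) and 55.0 CPM (39.1 to 75.2). The TTS macrophages exceeded the TTS lymphocytes by 29.4-fold in Spp1 and 28.5-fold in Fn1, and by 45.5-fold and 44.0-fold without that cell. Resident-marker TTS macrophages exceeded the lymphocytes by 3.97-fold and 6.90-fold, but their thinned Spp1 share of 18.1% (13.2% to 23.8%) overlapped that of the lymphocytes. Their thinned Fn1 share of 19.9% (14.8% to 25.9%) lay above that of the lymphocytes, and the intervals did not overlap. Without thinning, the median cell of this subset held some Spp1 but no Fn1, and the median TTS lymphocyte held neither. The subset was also deeper, with a median of 7638.5 UMIs. After thinning, 12.2% of TTS lymphocytes (7.78% to 17.8%) had a Spp1 UMI and 6.63% (3.47% to 11.3%) a Fn1 UMI. The Spp1 share was 18.8% when cells were thinned to 2000 UMIs. In TTS type 1 DCs the thinned shares were 7.25% (2.39% to 16.1%) for Spp1 and 5.80% (1.6% to 14.2%) for Fn1, not above those of the lymphocytes, and 1 cell held 94 of their 239 Spp1 UMIs. In Control, their Spp1 level of 35.2 CPM lay above the 2.61 CPM of the lymphocytes, but 1 cell held 10 of the 20 UMIs. After thinning, 1 of the 42 Control type 1 DCs had a Spp1 UMI. This share of 2.38% (0.0603% to 12.6%) overlapped the 0.314% (0.136% to 0.617%) of Control lymphocytes. Cd209a DCs had a thinned share of 14.6% (10.1% to 20%) for Spp1, which overlaps that of the lymphocytes, and 13.1% (8.92% to 18.4%) for Fn1.

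The lymphocyte level was uneven between types and cells. Spp1 in TTS was 67.7 CPM (35.0 to 118) in 44 B cells, 114 CPM (80.0 to 157) in 87 ILC2, 464 CPM (340 to 619) in 22 NK cells and 707 CPM (562 to 878) in 28 T cells. The T cell named above held 64 of the 82 UMIs of its class, and a single NK cell held 28 of 46. In Control, Spp1 was 10.4 CPM (5.97 to 17.0) in NK cells, 1.01 CPM (0.408 to 2.09) in B cells and 0 UMIs in ILC2. There were 56.8 Spp1 UMIs per 100 Lyz2 UMIs in TTS macrophages, 102 in the Arg1 subset and 21.4 in monocytes. The TTS lymphocytes had 31.6 in B cells, 56.1 in ILC2, 205 in T cells and 383 in NK cells. The T and NK values rest on 40 and 12 Lyz2 UMIs, and the source of the Spp1 UMIs in lymphocytes was not tested. Lymphocytes over 20 Lyz2 UMIs per 10000 had been set apart by the gates, which lowers their Lyz2. The 10.4 CPM of Spp1 in Control macrophages were 3.98-fold the level of all Control lymphocytes, most of which were B cells, but no higher than the level of Control NK cells.

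Few fibroblasts and endothelial cells, the other known sources of fibronectin, passed the stromal gate used here. The study named a fibroblast cluster among its populations, and called the share of its endothelial and mural clusters negligible. The 24 Control and 13 TTS cells of the stromal gate held Fn1 at 101 CPM (56.3 to 166) and 194.8 CPM (104 to 333), and Spp1 at 6.71 and 105 CPM. The Fn1 difference of 0.95 on the log2 scale had an interval of -0.24 to 2.13.

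Of the receptors, Cd44 was the only member that passed 2-fold in macrophages. Over the 4 receptor members, 1 was more than 2-fold higher and 0 were more than 2-fold lower in TTS. Of 12861 genes with at least 20 UMIs in these cells, 9.08% were more than 2-fold higher and 21.5% more than 2-fold lower, and the median log2 ratio of all of them was -0.25. The median of the 4 receptors was -0.28. In classical monocytes, 0 of 4 receptors were higher and 1, Itga4, was lower, beside 10.9% and 17.9% of 9605 genes and a median log2 ratio of -0.20. With 4 genes, these counts do not set the receptors apart from the rest.

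Cd44, which binds hyaluronan and links it to the cortical cytoskeleton, was 381 CPM (367 to 395.5) in Control macrophages and 891 CPM (879 to 903) in TTS macrophages. The log2 ratio was 1.23 (1.17 to 1.28), and the thinned share of cells with a UMI was 26.0% and 53.8%. In classical monocytes it was 1126 CPM (1029 to 1231) and 1162 CPM (1138 to 1187), a log2 ratio of 0.05 (-0.09 to 0.18). Within the TTS macrophages, Cd44 was 883 CPM in the Arg1 subset, 961 CPM in the other cells and 569 CPM in the resident-marker subset. Resident-marker cells differed from Control by a log2 ratio of 0.84 (0.73 to 0.96), less than 2-fold. Neutrophils held the highest Cd44 level of all classes in both libraries, 1744 CPM in Control and 1429 CPM in TTS.

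Among classes with at least 30 cells in both libraries, the interval of Cd44 lay above 0 in macrophages and B cells and below 0 in Cd209a DCs, type 1 DCs, neutrophils and ILC2. Cd44 in Control B cells was 88.5 CPM (81.6 to 95.8). The 44 TTS B cells had 439.8 CPM (348 to 549), and 1 of those cells held 18 of the 78 UMIs. In type 1 DCs it was 373 CPM (325 to 427) and 186 CPM (156 to 219).

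Itgav, the alpha v subunit that pairs with several beta subunits to read the RGD motif, was low throughout. It was 70.6 CPM (64.7 to 77.0) in Control macrophages and 61.5 CPM (58.5 to 64.6) in TTS macrophages, a log2 ratio of -0.20 (-0.35 to -0.05). In monocytes it was 48.6 and 60.4 CPM, with an interval of the log2 ratio from -0.32 to 1.02. The 3 subsets of TTS macrophages lay between 48.7 and 66.4 CPM. ILC2 held the highest level in TTS, 138 CPM (101 to 185), and their Control level of 119 CPM (98.1 to 142) was exceeded only by that of nonclassical monocytes, 126 CPM (83.3 to 184), with overlapping intervals.

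Itgb1, the beta 1 subunit shared by many receptors of matrix, was 308 CPM (295 to 321) in Control macrophages and 239 CPM (233 to 245) in TTS macrophages, a log2 ratio of -0.37 (-0.44 to -0.30). In monocytes it was 148 CPM (114 to 189) and 212 CPM (202 to 223), a log2 ratio of 0.52 (0.16 to 0.90). Within TTS macrophages, the resident-marker subset was the highest, at 320 CPM (296 to 345), against 226 CPM (217 to 235) in the Arg1 subset, the reverse of the order of Spp1 and Fn1. In the Control library, NK cells at 519 CPM (483 to 556) and nonclassical monocytes at 439.9 CPM (355 to 538) lay above macrophages, and B cells were at 34.9 CPM (30.6 to 39.6).

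Itga4, the alpha 4 subunit, was lower in TTS in 5 of the 7 classes compared, and its interval included 0 in B cells and ILC2. It was 349 CPM (296 to 410) in 48 Control monocytes and 87.6 CPM (81.0 to 94.6) in TTS monocytes, a log2 ratio of -2.00 (-2.25 to -1.73). In macrophages it was 115 CPM (108 to 123) and 62.7 CPM (59.6 to 65.9), a log2 ratio of -0.88 (-1.0 to -0.76). Cd209a DCs went from 158 CPM in Control to 55.0 CPM in TTS, a log2 ratio of -1.52 (-1.99 to -1.03). B cells were at 194.6 and 197 CPM. When macrophages and monocytes were divided by Ly6c2, Itga4 was higher in Control than in TTS in every range, with 109, 201, 236 and 540.2 CPM against 63.2, 67.6, 80.2 and 175 CPM. The highest Control levels were those of NK cells, 636 CPM (597 to 677), and nonclassical monocytes, 515 CPM (423 to 620), whose intervals overlapped.

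**Figure D4:**
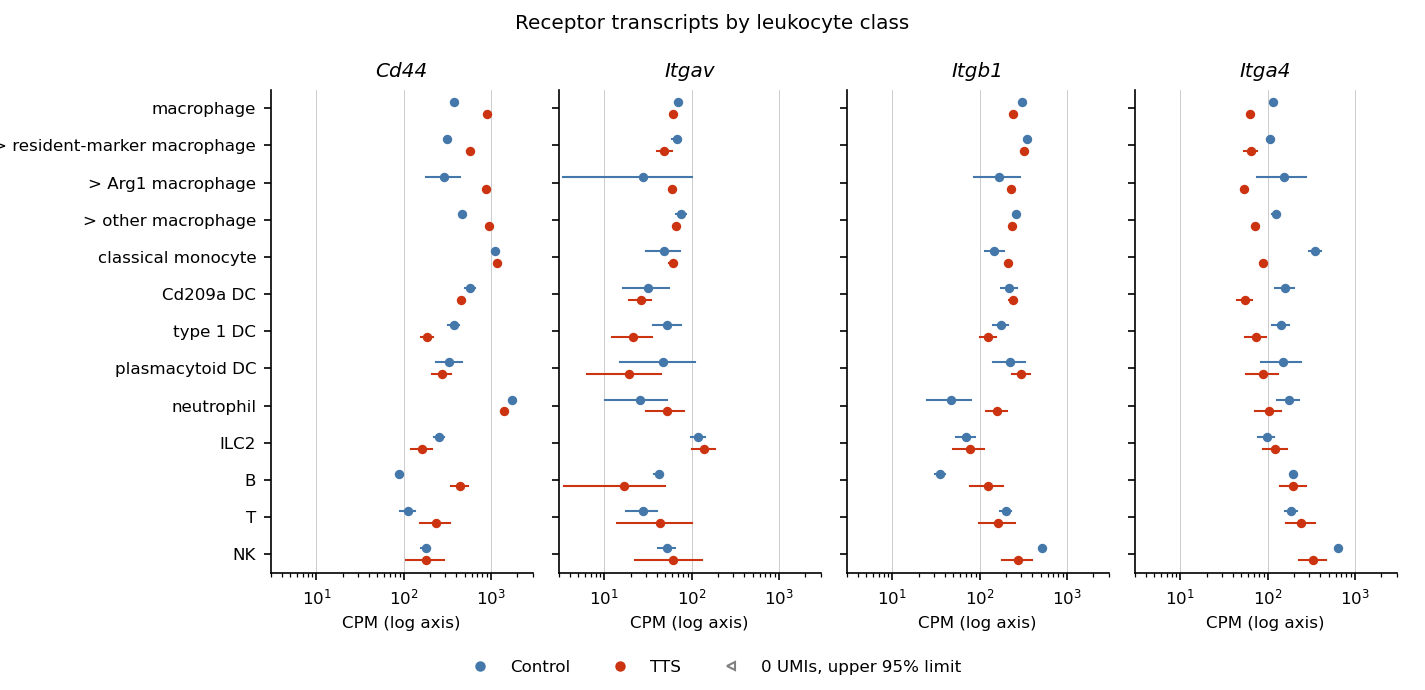
Levels of Cd44, Itgav, Itgb1 and Itga4 in CPM (log axes) for each marker-gated class in the Control (blue) and TTS (red) library, with exact Poisson 95% intervals as bars; rows marked > are subsets of the macrophage row, and DC stands for dendritic cell. Cd44 lay at 381 CPM in Control and 891 CPM in TTS macrophages, and Itga4 at 349 CPM in Control and 87.6 CPM in TTS monocytes.

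The other genes of this ligand and receptor system were described from lists, by how many members with at least 20 UMIs passed 2-fold. The lists were chosen with earlier results of these data known, so their counts are a description. A gene at 0 in a library was given the floor of 3 counts there. Of the other receptors of osteopontin and fibronectin, 0 of 7 were more than 2-fold higher and 2 were more than 2-fold lower in TTS macrophages, beside 9.08% and 21.5% of all genes. Itga9, whose protein reads the osteopontin site next to the RGD motif, was 82.7 CPM in Control and 8.50 CPM in TTS, a log2 ratio of -3.28 (-3.51 to -3.05). The other was Itgb3, the partner of alpha v, with 18 and 29 UMIs. Itga5, which pairs with Itgb1 as the classical fibronectin receptor, was 147 and 111 CPM in macrophages. In monocytes, 2 of 4 were higher and 0 lower, beside 10.9% and 17.9% of all genes. Sdc4, a heparan sulfate coreceptor for fibronectin, had 8 UMIs in Control monocytes (18.5 CPM) and 1111 CPM in TTS monocytes, and Itgb5 was 27.8 and 84.0 CPM.

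The subunits of the leukocyte integrins differed among themselves. In macrophages, 3 of 7 were more than 2-fold higher (Itgam, Itgb2 and Itga1) and 1 was lower (Itgae), beside 9.08% and 21.5% of all genes. Itgam and Itgb2, which form the Mac-1 integrin, were 215 and 647 CPM and 228 and 469 CPM in Control and TTS. In monocytes, 1 of 6 was higher and 1 lower, beside 10.9% and 17.9% of all genes. Itgal, the alpha subunit of LFA-1, was 384 CPM in Control and 82.0 CPM in TTS monocytes, a log2 ratio of -2.23 (-2.48 to -1.97). Itga6 was higher with 1 Control UMI and a log2 interval of 0.02 to 7.85.

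Other ligands of these receptors were among the genes with large ratios. In macrophages, 4 of 6 were higher and 2 lower, beside 9.08% and 21.5% of all genes. Thrombospondin 1 (Thbs1) was 155 CPM in Control and 1751 CPM in TTS, a log2 ratio of 3.5 (3.41 to 3.58). Lgals3, the gene of galectin 3, was 429 and 2916 CPM, Tgfbi was 598 and 2646 CPM, and Srgn was 1231 and 3564 CPM. Vcam1, a ligand of alpha 4 beta 1, was 42.4 and 13.5 CPM, and Mfge8, whose product carries an RGD motif, was 28.4 and 10.8 CPM. In monocytes, 3 of 6 were higher (Tgfbi, Vcam1 and Srgn) and 0 lower, beside 10.9% and 17.9% of all genes. Vcam1 there had 1 Control UMI and a log2 interval of -0.53 to 7.32.

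Of 7 enzymes that cut or cross-link the ligands, 2 were higher in macrophages and 3 in monocytes, and 0 were lower in either. Of all genes, 9.08% and 10.9% were higher, and 21.5% and 17.9% lower. Tgm2, a transglutaminase with both proteins among its substrates, was 38.3 CPM in Control and 309.5 CPM in TTS macrophages, a log2 ratio of 3.02 (2.84 to 3.19). Mmp14, a membrane-bound matrix metalloproteinase, was 21.6 and 101 CPM in macrophages, and in monocytes it was 10.4-fold the floor of 3 counts, with 0 Control UMIs. Of the cytoplasmic partners of integrins and Cd44, 14 of 16 in macrophages and 13 of 15 in monocytes stayed within 2-fold. In each class 1 was higher and 1 lower, beside 9.08% and 21.5% of all genes in macrophages and 10.9% and 17.9% in monocytes. Most genes thus stayed within 2-fold as well. Talin 1 (Tln1), which activates integrins, was 463 and 501 CPM in macrophages. The kinase gene Fgr was higher at 43.2 and 148 CPM, and the focal adhesion kinase gene Ptk2 was lower with 50 and 55 UMIs.

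The last list held 8 genes known with Spp1 in macrophages of lipid-rich and scarred tissue. It too was chosen with earlier results known. It holds Arg1, which chose a macrophage subset above, and Lgals3, which was also counted among the ligands. In macrophages 5 of the 8 genes were more than 2-fold higher and 0 more than 2-fold lower, with a median log2 ratio of 2.32. In monocytes 6 were higher and 0 lower by this limit, with a median of 2.67. Of all genes, 9.08% and 10.9% were higher and 21.5% and 17.9% lower, with medians of -0.25 and -0.20. The monocyte genes were Trem2, Cd9, Fabp5, Cd63, Arg1 and Ctsd, with 1 Control UMI for Cd63 (log2 interval, 3.42 to 11.2) and 0 for Arg1. The macrophage genes were Arg1, Gpnmb, Fabp5, Lgals3 and Ctsd. Arg1 was 3.83 CPM in Control and 799.7 CPM in TTS, and Fabp5, a fatty acid binding protein, was 6.42 and 96.6 CPM. Gpnmb had 2 Control UMIs, with a log2 interval of 4.38 to 9.29. Trem2, the lipid receptor that marks such cells, was 153 and 239 CPM, a log2 ratio of 0.64 (0.55 to 0.73). Cd9 in macrophages was 234 and 458 CPM, a log2 ratio of 0.97 (0.90 to 1.05). Cd63 in macrophages was lower in TTS, at 382 and 302 CPM, a log2 ratio of -0.34 (-0.40 to -0.28).

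**Figure D5:**
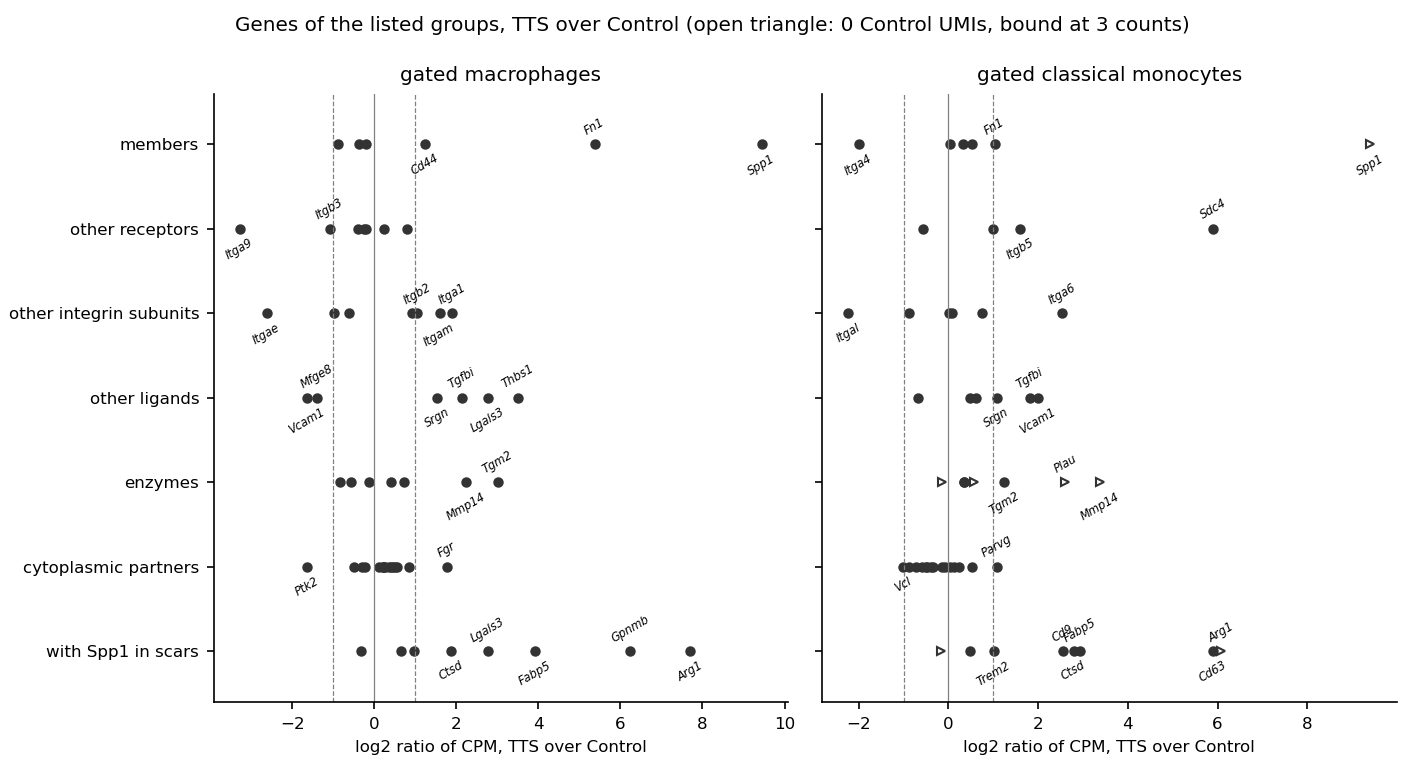
Log2 ratios of CPM, TTS over Control (horizontal axis), of the genes with at least 20 UMIs in each list (rows), in gated macrophages (left) and classical monocytes (right); each point is a gene, dashed lines mark 2-fold, genes beyond them are named, and open triangles are bounds for genes with 0 Control UMIs. Spp1 and Fn1 lay at 9.45 and 5.37 in macrophages, and 14 of 16 cytoplasmic partners lay within 2-fold. Of all genes in macrophages, 9.08% were more than 2-fold higher and 21.5% more than 2-fold lower.

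The genes whose levels followed Spp1 and Fn1 most closely over the classes were sought by Pearson correlation of log2(CPM + 1) over 18 points, the classes with at least 30 cells in each library, among 3719 genes that were not gate markers. The points share their library, depth and free RNA, so the correlations are a description. For Spp1 the nearest were Saa3 (r = 0.90), Timp1 (0.89), Tpi1 (0.89), AA467197 (0.88) and Snapc5 (0.88). Saa3, an acute-phase protein gene, was 2.46 CPM in Control and 252 CPM in TTS macrophages, and Timp1, an inhibitor of matrix metalloproteinases, was 3.96 and 162 CPM. For Fn1 the nearest were Sod2 (0.91), Msr1 (0.90), Anxa3 (0.90), Xbp1 (0.90) and Ms4a6d (0.89). Msr1, a scavenger receptor gene, was 103 and 455 CPM in macrophages and 94.8 and 478 CPM in monocytes.

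Barcodes that could not be assigned gave a like picture. Those of more than 1 lineage held Spp1 at 14.4 CPM in Control and 4704 CPM in TTS, and Fn1 at 24.1 and 2020 CPM. Of the 102 Spp1 UMIs in ungated Control barcodes, 95 lay in 1 barcode.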

How the data were processed

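CD45+ cells from hearts were profiled in 1 Control and 1 TTS library. Per the labels and methods, barcodes were read by UMI-tools 1.0.0, alignment to mm10 used STAR 2.7.3a, and genes were counted by featureCounts 1.6.4. The deposited values are UMI counts per gene and barcode, without normalization, for 5927 Control and 5514 TTS barcodes, a list already limited upstream. The annotation release was not given in the sources used here.

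The members and gene lists were chosen with earlier results of these data known. The study's filters were applied (500 to 6000 detected genes, mitochondrial share below 25%), leaving 41651434 Control and 55443553 TTS UMIs. Summed markers per 10000 UMIs defined the classes. A barcode over the limits of more than 1 lineage was set apart in place of a doublet caller. Macrophages needed 6 UMIs per 10000 of their markers, classical monocytes 40 and 5 times the macrophage sum, the Arg1 subset 2 and the resident subset 5. Older gene symbols were matched through RefSeq synonyms.

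UMIs were summed per class, and counts were compared between 1 library per group without a test, so that p-values were not computed. The named genes are the 6 members, the listed genes and the 5 most like Spp1 and Fn1. Python 3.11.15 with numpy 2.4.6, scipy 1.17.1 and pandas 2.3.3 was used. The ratio step was tested on simulated data. Alternatives varied gates, filters, scaling, depth, free RNA and cell classes.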

Additional observations from a re-analysis of the deposited data

Results flagged for a closer look

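Receptor members differed in opposite directions between classes, by their counting intervals and without a test of the difference. The log2 ratio of Cd44, TTS over Control, was 2.31 in B cells and -1.01 in type 1 DCs. That of Itgb1 was 1.83 in B cells and -0.489 in type 1 DCs. The TTS values of B cells rest on 44 cells with 78 Cd44 UMIs, 18 of them in 1 cell, and 22 Itgb1 UMIs. The thinned Cd44 shares of B cells overlapped, at 6.80% (5.69% to 8.05%) in Control and 11.4% (3.79% to 24.6%) in TTS. Those of Itgb1 did not, at 2.96% (2.23% to 3.85%) and 13.6% (5.17% to 27.4%).

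Barcodes outside the cell filters, which enter no comparison above, also held both ligands. In TTS, 77 such barcodes had Spp1 at 5550 CPM and Fn1 at 2450 CPM, against 26.0 and 54.3 CPM in 286 Control barcodes.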

How the results depend on the processing

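Log2 ratios below are TTS over Control. With barcodes of 2 lineages kept, Spp1 in macrophages was 8.92 and Fn1 6.21, against 9.45 and 5.37. With 0.5 times the limit of a second lineage, Fn1 in monocytes was 1.19, and with double the limit Fn1 in macrophages was 5.60. With double the floor of the own lineage, Spp1 in monocytes, taken against the floor of 3 counts, was 7.88 (9.41 at the chosen limit) and Fn1 0.67 (1.03). With cells thinned before summing, Spp1 was 9.80 in macrophages and 6.04 against the floor in monocytes, and Fn1 in monocytes 1.38. With clusters in place of gates, Spp1 was 8.17 and Fn1 5.94 in macrophages, and in monocytes Spp1 was 3.73 against the floor and Fn1 turned to -0.91, with 5 Control cells. The values against the floor follow the Control depth left in the class, and the cause of the other shifts was not tested. With macrophages and monocytes as 1 class, added after the data were seen, Fn1 was 4.39. The count of receptor members past the fold, 1 at 2-fold, was 2 at 1.5-fold and 0 at 3-fold. The thinned share of TTS lymphocytes with Spp1 was 18.8% at 2000 UMIs. Other filters, scalings and subtraction of the B cell level moved these values by less than their counting intervals. No paired analysis was possible because each group has 1 library, and no replicate could be left out. Depth limits the classes with few Control cells most, foremost the 48 monocytes.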
